A study of Mus musculus with 4 samples.

Results

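Secreted Wnt inhibitors are extracellular proteins that keep Wnt signals from reaching or activating their receptors. The 9 genes described here, Dkk2, Dkk3, Sfrp1, Sfrp2, Sfrp4, Sfrp5, Frzb, Wif1 and Notum, form a named gene family list, chosen with earlier results of these data known and with no threshold on their values. They are 9 of the 18619 genes listed for a single-cell library of mouse intestinal stromal cells (IntSCs). All 9 were found in the gene list, and 5 of them (Dkk2, Dkk3, Sfrp1, Frzb and Wif1) had at least 100 unique molecular identifier counts (UMIs), the minimum used here for counting a member by its fold. The other 4 stayed under that minimum in the whole library and enter no such count.

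The series holds 4 samples in 3 groups, 2 wild type libraries and 1 library each of LATS1/2 KO mice at 1 week (1w) and at a later time, all of sorted stromal cells from adult C57BL/6J animals. Only the LATS1/2 KO 1w library is described here, and the other libraries were not analysed here, so nothing below compares knockout with wild type. Its cells were sorted for a red tomato reporter in mice with floxed Lats1 and floxed Lats2 alleles (f/f) and a tamoxifen-inducible Cre under control of Pdgfrb, so cells that never drove Cre from Pdgfrb are outside the sort. They came from small intestine with serosa, muscle layer and Peyer's patches taken off, 1 week after tamoxifen, and blood, epithelial and endothelial cells had been depleted. Lats1 and Lats2 encode the kinases that hold back the transcriptional co-activators YAP and TAZ. The library held 656 UMIs of Lats1 and 2466 UMIs of Lats2, but reads counted at the 3′ end need not cover the floxed exons, so these counts do not check the deletion.

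Wnt ligands bind Frizzled receptors together with the co-receptors Lrp5 or Lrp6 and stabilise beta-catenin. In the small intestine this signal keeps the stem cells at the crypt base dividing, and stromal cells supply ligands, amplifiers (R-spondins) and inhibitors. The inhibitors act in several ways. Sfrp1, Sfrp2, Sfrp4, Sfrp5 and Frzb (also called Sfrp3) carry a Frizzled-like domain and bind Wnt proteins, as does the structurally different Wif1. Dkk2 binds the co-receptors Lrp5 and Lrp6, Dkk3 is a divergent member of the Dickkopf family whose part in Wnt signalling is less settled, and Notum is an enzyme that removes the lipid which Wnt proteins need.

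In total 46054627 UMIs were counted in 4108 cells, and single cells held 1965 to 35727 of them (median 10726). A level is given in CPM, the UMIs of a gene in every 1000000 counted in those cells, with an exact 95% Poisson interval in parentheses, and a ratio of levels with an exact conditional interval. With 1 library and no replicate, no test between groups was possible, and all intervals cover counting error only. Levels were not divided by transcript length, since the kit counts 1 end of each transcript, and each ratio of levels compares 1 gene, or the summed genes, between sets of cells. Shares of inhibitor UMIs by gene describe what was counted, since capture may differ between genes.

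Cells were grouped into 6 classes by clustering without the 9 inhibitors, without the other Wnt pathway genes and without YAP/TAZ target genes, and clusters were named from marker genes. The classes were villus fibroblast-like cells (vFB, 3023 cells in clusters 1, 2, 4, 5 and 6), vFB3-like cells (45), submucosal FB4-like fibroblasts (689), subepithelial FB5-like fibroblasts (205), smooth muscle-like cells (SMC, 76) and mural-like cells (MC, 70). The 5 vFB markers were 2.96-fold to 8.31-fold above their median level in the other classes. They were not exclusive: Adamdec1 was 4731 CPM in vFB and 4237 in SMC-like cells, Vwc2 was higher in SMC-like (53.1) than in vFB cells (39.2), and Shisa3 was higher in FB4-like (125.9) than in vFB cells (88.3). Among the 10 leading genes of each vFB cluster, clusters 2 and 5 had 1 vFB marker each, clusters 1 and 4 had no marker of the lists used, and cluster 6 had 1 vFB3 marker (Fbln7) and no vFB marker. The vFB3 markers summed to 1037 CPM in cluster 6 and to 362 to 723 CPM in the other 4, while its vFB markers summed to 7986 CPM, against 5144 to 6554 CPM in the other 4. Each cell was also placed by the mean standardised level of its markers for the classes other than vFB. A cell was called vFB where none of these means reached 1.0, without use of the vFB markers. This gave the same class for 3787 cells (92.2%), and 252 cells lay within 0.2 of the cut. Immune markers summed to 2.93 CPM and endothelial markers to 0.304 CPM in the library. The study split its cells by presence of Xist, and the columns of the matrix marked F (all with Xist UMIs) and M (none) match that split. They were treated as 2 parts of 1 library and not as samples.

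For the 9 genes the GENCODE annotation of GRCm38 gives protein-coding loci. Dkk2 lies on chromosome 3 (132085292 to 132180304, plus strand), Sfrp1 on chromosome 8 (23411502 to 23449632, plus strand), Dkk3 on chromosome 7 (112116017 to 112159057, minus strand), Frzb on chromosome 2 (80411970 to 80447625, minus strand) and Wif1 on chromosome 10 (121033960 to 121100650, plus strand). Sfrp2 (chromosome 3, 83766321 to 83774316), Sfrp4 (chromosome 13, 19623104 to 19632994), Sfrp5 (chromosome 19, 42197971 to 42202252) and Notum (chromosome 11, 120653788 to 120661175) are the rarely counted members. RefSeq promoter sequences of GRCm38.p6, from 250 bases before to 50 bases after the RefSeq gene start, were at hand for 5 members. The RefSeq starts of Frzb and Wif1 differ from the GENCODE starts above. The promoters of the 3 among these 5 members that had at least 100 UMIs are shown so that the differences in level below can be read beside the sequence at the gene start. Capitals mark the letters TATAAA, or TTTATA where they lie on the opposite strand.
Dkk2 (chr3:132085042-132085341, plus strand): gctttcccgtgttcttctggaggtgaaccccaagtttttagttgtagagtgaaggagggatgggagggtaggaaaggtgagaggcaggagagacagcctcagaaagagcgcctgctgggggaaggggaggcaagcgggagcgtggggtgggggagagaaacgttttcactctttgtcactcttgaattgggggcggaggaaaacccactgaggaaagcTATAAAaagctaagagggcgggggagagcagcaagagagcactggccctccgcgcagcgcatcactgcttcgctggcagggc
Frzb (chr2:80447347-80447646, minus strand): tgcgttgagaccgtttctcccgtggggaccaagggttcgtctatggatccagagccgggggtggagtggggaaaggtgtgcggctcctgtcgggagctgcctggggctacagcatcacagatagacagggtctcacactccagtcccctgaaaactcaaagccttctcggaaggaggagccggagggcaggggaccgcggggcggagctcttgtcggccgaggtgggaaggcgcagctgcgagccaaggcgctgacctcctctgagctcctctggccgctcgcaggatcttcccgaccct
Wif1 (chr10:121033754-121034053, plus strand): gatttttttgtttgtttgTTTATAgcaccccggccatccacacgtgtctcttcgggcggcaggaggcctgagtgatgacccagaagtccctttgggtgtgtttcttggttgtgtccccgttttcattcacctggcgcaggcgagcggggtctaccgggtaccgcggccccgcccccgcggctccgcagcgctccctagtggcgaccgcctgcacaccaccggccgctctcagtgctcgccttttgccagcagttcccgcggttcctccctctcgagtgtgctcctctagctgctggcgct
The Dkk2 promoter held the letters TATAAA on its own strand, starting 32 bases before the RefSeq start, and the Wif1 promoter held them on the opposite strand, 232 bases before the start. Of 32851 promoters of this length, 13.6% held TATAAA on either strand. Neither these 3 promoters nor those of Sfrp2 and Sfrp5 held the TEAD motif GGAATG (in 14.7% of all promoters), the AP-1 motif TGANTCA (7.81%) or the TCF/LEF motif CTTTGAT (3.73%), each searched on both strands, which describes only these 300 bases.

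The first question was which stromal classes carry the inhibitors. The 9 genes summed to 2393 CPM (2376 to 2409) in vFB cells, 1305 (1281 to 1330) in FB4-like cells, 1035 (963.5 to 1110) in SMC-like cells, 626 (563 to 694) in vFB3-like cells, 552 (523 to 582) in FB5-like cells and 506 (450 to 568) in MC-like cells. vFB cells held 85% of all 93162 inhibitor UMIs but 71.9% of all UMIs. Their summed level was 4.73-fold (4.21 to 5.32) that of MC-like cells, the lowest class (the highest over the lowest class was 8.68-fold in cells with at most 5% mitochondrial UMIs), and 1.83-fold (1.80 to 1.87) that of FB4-like cells. The 2 lowest classes, FB5-like and MC-like cells, did not differ beyond counting error (1.09, 0.96 to 1.24). The cells of highest doublet score were the top 4%, most of them not called doublets. Without them the order turned, with 376 CPM (351 to 402) in FB5-like and 448 (394 to 507) in MC-like cells, a ratio of 0.839 (0.727 to 0.971).

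To compare cells of unlike depth, each cell was thinned to 5000 UMIs, and 94 cells with fewer were left out, 55 of them vFB and 21 of the 70 MC-like cells. After thinning, a vFB cell held UMIs of 2.50 ± 0.833 of the 9 inhibitors (mean and SD over 2968 cells). FB4-like cells held 1.71, vFB3-like cells 1.68, SMC-like cells 1.65, FB5-like cells 1.19 and MC-like cells 0.571. The share of cells with no inhibitor UMI was 0.472% in vFB cells (exact binomial 95% interval 0.258 to 0.790), 18.5% in FB5-like cells (13.4 to 24.6) and 69.4% in the 49 MC-like cells kept (54.6 to 81.7). Inhibitor UMIs were thus found together in most vFB cells, and in few MC-like cells at this depth. In vFB cells 50.8% held both Dkk2 and Sfrp1, with Sfrp1 in 96.5% of cells with Dkk2 and 94.5% of those without it. Frzb was present in 26.3% of vFB cells with Dkk2 and in 35.4% of those without it.

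**Figure D1:**
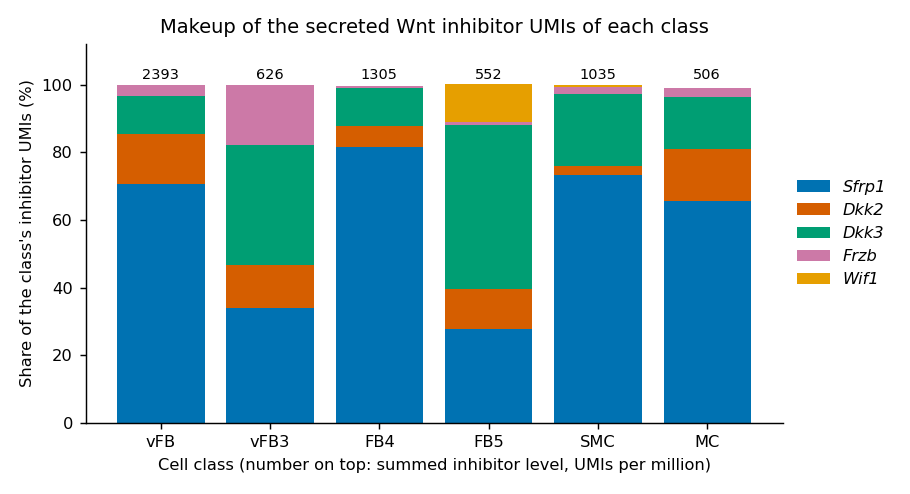
Stacked bars show, for each cell class, the percent of its inhibitor UMIs that came from Sfrp1, Dkk2, Dkk3, Frzb and Wif1, with the summed level of the 9 genes (CPM) on top. Sfrp1 made up 70.6% in vFB cells and 81.6% in FB4-like cells, while Dkk3 made up 35.4% in vFB3-like and 48.6% in FB5-like cells. The rare Sfrp2, Sfrp4 and Sfrp5 and the uncounted Notum are not drawn, so bars can end just under 100%.

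The makeup also differed between classes. Sfrp1 gave 71.1% of all inhibitor UMIs in the library, Dkk2 13.7%, Dkk3 11.9%, Frzb 3.10% and Wif1 0.170%. In FB5-like cells Wif1 alone was 11.2% and Sfrp1 27.7%, and without the 15 cells of high doublet score there they were 16.3% and 5.90%, with Dkk3 at 71.7% in place of 48.6%. In vFB3-like cells Frzb was 17.9%, against 3.42% in vFB cells.

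Of the 5 members with at least 100 UMIs, 4 were at least 2-fold higher in 1 class than in all other cells, namely Dkk2, Frzb and Sfrp1 in vFB cells and Wif1 in FB5-like cells. Wif1 reached 100 UMIs only through FB5-like cells, so its place in this count was set by the minimum, and the count without it was 3 of 4. Of all 11467 genes with at least 100 UMIs, 25.7% were at least 2-fold higher in some class. By class the share was 2.08% in vFB, 5.49% in FB5-like, 3.35% in FB4-like, 6.24% in SMC-like, 8.06% in vFB3-like and 9.14% in MC-like cells. The 3 inhibitors in vFB cells stand beside 239 genes of all 11467 that passed the same fold there. Dkk2 is also listed by the study as a villus fibroblast marker, so its place there was known beforehand. It was left out of the markers used here because it is a member. Without cluster 6, left out after seeing the data, the count was 4 as well, with ratios of 5.32 for Dkk2, 5.56 for Frzb, 2.03 for Sfrp1 and 614 for Wif1.

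Among the proteins that bind Wnt ligands, Sfrp1 was counted in most cells (66246 UMIs, library level 1438 CPM). Its level was 1688 CPM (1674 to 1702) in vFB cells, 1065 (1043 to 1087) in FB4-like, 759.9 (699 to 825) in SMC-like, 332 (287 to 382) in MC-like, 212 (176 to 252) in vFB3-like and 153 (138 to 169) in FB5-like cells. Each neighbour in this order differed beyond counting error. vFB cells were 2.11-fold (2.07 to 2.15) above all other cells, and 1.89-fold within columns marked F and 2.47-fold within columns marked M. After thinning, 95.6% of vFB cells held a UMI (median 10410 UMIs per cell before thinning) against 16.5% of FB5-like cells (median 11829).

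The Sfrp1 UMIs of FB5-like and MC-like cells lay in few cells, while in vFB3-like cells 33 of 45 cells held the gene and 5 of them held 52% of its 123 UMIs. In FB5-like cells 5 cells held 57.1% of the 382 Sfrp1 UMIs, and 48 of the 205 cells held any. Without the 15 FB5-like cells among those with the highest doublet scores the level was 22.2 CPM, under the 124 CPM that a bound on free RNA (8.64% of a cell's UMIs, from Y-linked UMIs in cells with Xist) would allow. In MC-like cells 18 of 70 cells held Sfrp1, and 5 of them held 57.8% of its UMIs. FB4 markers summed to 580 CPM and SMC markers to 1934 CPM in MC-like cells, and all of these lists were detected there in full. In SMC-like cells Sfrp1 was spread over 70 of 76 cells, and the vFB markers summed to 4662 CPM, against 6031 in vFB cells. The part of these other markers in the Sfrp1 levels was not tested.

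Frzb, the other well-counted protein with a Frizzled-like domain (2892 UMIs), had a narrower pattern. Its level was 111.8 CPM (86.3 to 142) in vFB3-like and 81.8 CPM (78.8 to 85.0) in vFB cells, and it was 21.3 (12.2 to 34.5) in SMC-like, 13.8 (5.97 to 27.2) in MC-like, 9.83 (7.84 to 12.2) in FB4-like and 4.002 (1.92 to 7.36) in FB5-like cells. vFB cells were 5.80-fold (4.99 to 6.77) above all other cells and 8.33-fold (6.70 to 10.5) above FB4-like cells. vFB3-like cells were 1.37-fold (1.05 to 1.75) above vFB cells, with 65 UMIs in 29 of 45 cells. The ratio was 1.73 (1.23 to 2.38) in columns marked F, from 21 vFB3-like cells, and 1.03 (0.670 to 1.52) in columns marked M, from 24, so the order of the 2 classes was not seen in both. SMC-like and MC-like cells did not differ beyond counting error (1.54, 0.621 to 4.15). The level in FB5-like cells lay under the 5.43 CPM that the free RNA bound would allow and rested on 10 UMIs.

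Thus the Frizzled-like inhibitors split the fibroblasts in different ways. Sfrp1 was high in vFB and FB4-like cells and 7.98-fold (6.69 to 9.60) lower in vFB3-like than in vFB cells, while Frzb was high in vFB and vFB3-like cells and low in FB4-like cells. Placing cells by their own marker levels moved 133 FB4-like cells to vFB, 109 vFB cells to vFB3 and 39 vFB cells to SMC, and the ratio of Frzb in vFB over all other cells was then 3.3 in place of 5.80. The part of each move was not tested.

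Sfrp4 was rare (55 UMIs), and 41 of its UMIs (74.5%) came from 29 FB4-like cells. Its level there was 4.80 CPM (3.44 to 6.51), against 0.363 (0.187 to 0.633) in vFB cells, a ratio of FB4-like to all other cells of 12.9 (6.86 to 25.5). Sfrp4 was found in FB4-like cells of both column marks. Sfrp2 had 4 UMIs, all in vFB cells, and Sfrp5 had 6 UMIs in 3 cells. Notum had no UMI among 46054627, which allows a level of up to 0.0651 CPM.

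Wif1 was the most restricted of the 5 members with at least 100 UMIs. Of its 158 UMIs, 154 lay in 76 FB5-like cells (61.6 CPM, 52.3 to 72.2) and the other 4 in a single SMC-like cell of 9070 UMIs. None was found among the 33095318 UMIs of vFB cells, which allows up to 0.0906 CPM, nor in FB4-like, vFB3-like or MC-like cells, where the limits were 0.351, 5.16 and 5.18 CPM. The level in FB5-like cells was 680-fold the floor of 3 UMIs over all vFB cells, and with counting error in both classes it was at least 546-fold higher than in vFB cells (lower limit of the exact conditional interval). It was 671-fold (257 to 2494.1) that of all other cells together.

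The bound on free RNA would have allowed 9.81 Wif1 UMIs in vFB cells, where 0 were counted. Wif1 was not evenly present in FB5-like cells, as 37.1% of them held a UMI and 5 cells held 19.5% of the UMIs. Its level was 72.5 CPM in FB5-like columns marked M and 53.4 in those marked F (F over M 0.736, 0.530 to 1.02). In FB5-like cells Wif1 was 69.1 CPM without an Amotl2 UMI and 54.8 with 2 or more (ratio 0.794, 0.485 to 1.25).

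**Figure D2:**
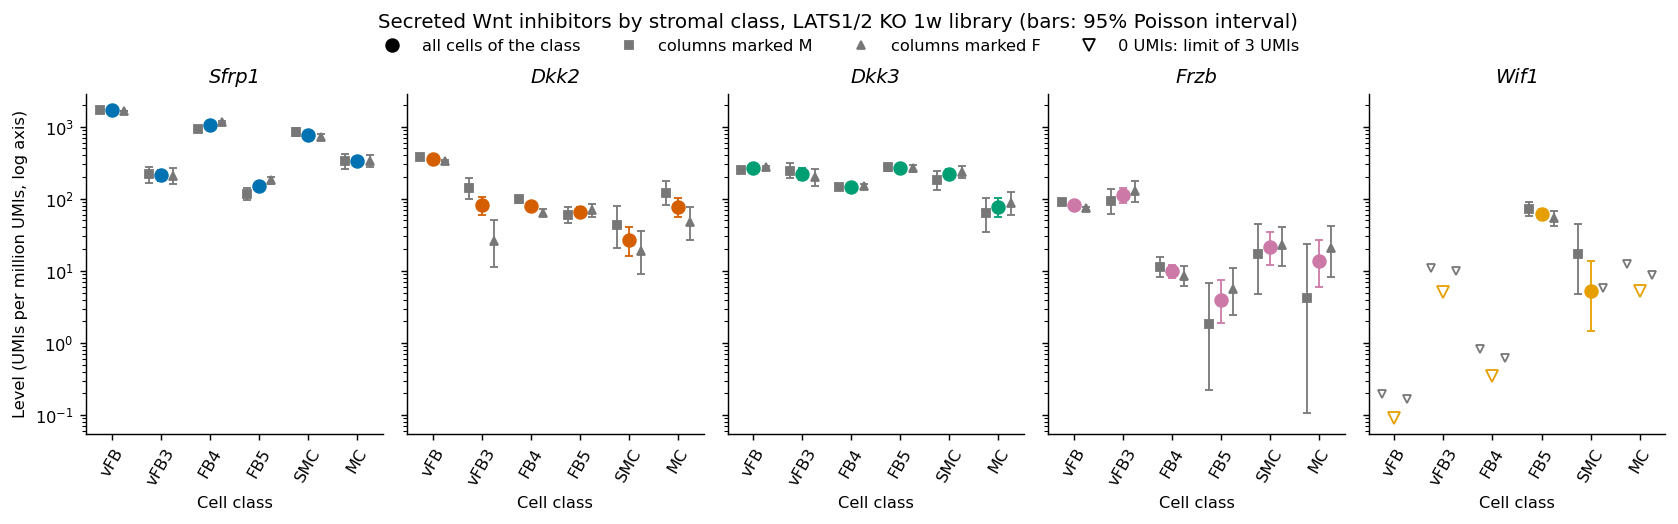
Each panel shows 1 inhibitor, with the cell class on the x axis and its level in CPM on a log y axis. Large circles are all cells of a class, squares and triangles the columns marked M and F, bars the 95% Poisson interval, and open triangles the limit of 3 UMIs where none was counted. Sfrp1, Dkk2 and Frzb are high in vFB cells. With both marks pooled, Dkk3 lies between 77.8 and 268 in every class, and Wif1 is above 10 only in FB5-like cells.

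Of the Dickkopf proteins, Dkk2 (12725 UMIs), a villus fibroblast marker of the study, was highest in vFB cells. Its level was 356 CPM (349 to 362) in vFB cells, 80.8 (59.4 to 107) in vFB3-like, 78.8 (73.0 to 85.0) in FB4-like, 77.8 (56.7 to 104) in MC-like, 65.2 (55.6 to 76.0) in FB5-like and 26.6 (16.2 to 41.0) in SMC-like cells. vFB3-like, FB4-like and MC-like cells did not differ among themselves beyond counting error. vFB cells held 92.5% of Dkk2 UMIs and were 4.86-fold (4.55 to 5.20) above all other cells. After thinning, 52.7% of vFB cells held Dkk2 (50.8 to 54.5), against 22.1% of FB4-like, 9.09% of vFB3-like, 9% of FB5-like, 8.16% of MC-like and 8% of SMC-like cells.

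Outside vFB and FB4-like cells the Dkk2 level rested on a handful of cells. One vFB3-like cell held 37 of the 47 UMIs of that class, and 5 MC-like cells held 43 of 45. In FB5-like cells the level was 65.2 CPM with all cells and 22.2 CPM without the 15 cells of high doublet score, against 23.9 CPM allowed by the free RNA bound. In vFB cells 5 cells held 1.59% of the 11776 UMIs, and the highest cell had 31.9 UMIs per 10000 against a median of 1.58.

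Dkk3 (11076 UMIs) was the most even member. It was 268 CPM (248 to 289) in FB5-like, 266 (261 to 272) in vFB, 222 (185 to 264) in vFB3-like, 220 (188 to 257) in SMC-like, 147 (139 to 155) in FB4-like and 77.8 (56.7 to 104) in MC-like cells. FB5-like and vFB cells did not differ beyond counting error (1.01, 0.930 to 1.09), nor did vFB3-like and SMC-like cells (1.01, 0.793 to 1.27). vFB cells were 1.52-fold above all other cells, short of the 2-fold used here. In MC-like cells 5 cells held 68.9% of the 45 UMIs, while in FB5-like cells 192 of 205 cells held Dkk3.

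Within vFB cells the members did not share one pattern. Across the 5 vFB clusters Sfrp1 was 2600 CPM in cluster 2, 2595 in cluster 5, 2219 in cluster 6, 966 in cluster 4 and 752 in cluster 1. Clusters 2 and 5 did not differ (1, 0.981 to 1.02), and cluster 2 was 3.46-fold (3.36 to 3.56) above cluster 1. Dkk2 was 654 CPM in cluster 4, 454 in cluster 5, 273 in cluster 1, 191 in cluster 2 and 87.8 in cluster 6, a span of 7.45-fold (6.66 to 8.36). The cluster with most Dkk2 was thus among the 2 with least Sfrp1.

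Dkk3 and Frzb varied less. Dkk3 lay between 210 CPM (cluster 2) and 321 CPM (cluster 6), a ratio of 1.53 (1.41 to 1.65). Frzb lay between 60.9 CPM (cluster 2) and 108 CPM (cluster 6), a ratio of 1.78 (1.55 to 2.04), with 101.8 in cluster 1, 80.8 in cluster 4 and 62.1 in cluster 5. Both had their highest pooled level in cluster 6, but Dkk3 did not differ there from cluster 4 (1.01, 0.943 to 1.08) nor Frzb from cluster 1 (1.06, 0.944 to 1.20). Columns marked M and F gave the same order of the 5 clusters for Dkk2, and for Sfrp1 except that clusters 2 and 5 changed places. In columns marked M, Frzb was highest in cluster 1 (128 CPM) rather than cluster 6 (100.1 CPM). Dkk2 was among the 10 leading genes of cluster 4, although it took no part in the clustering.

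**Figure D3:**
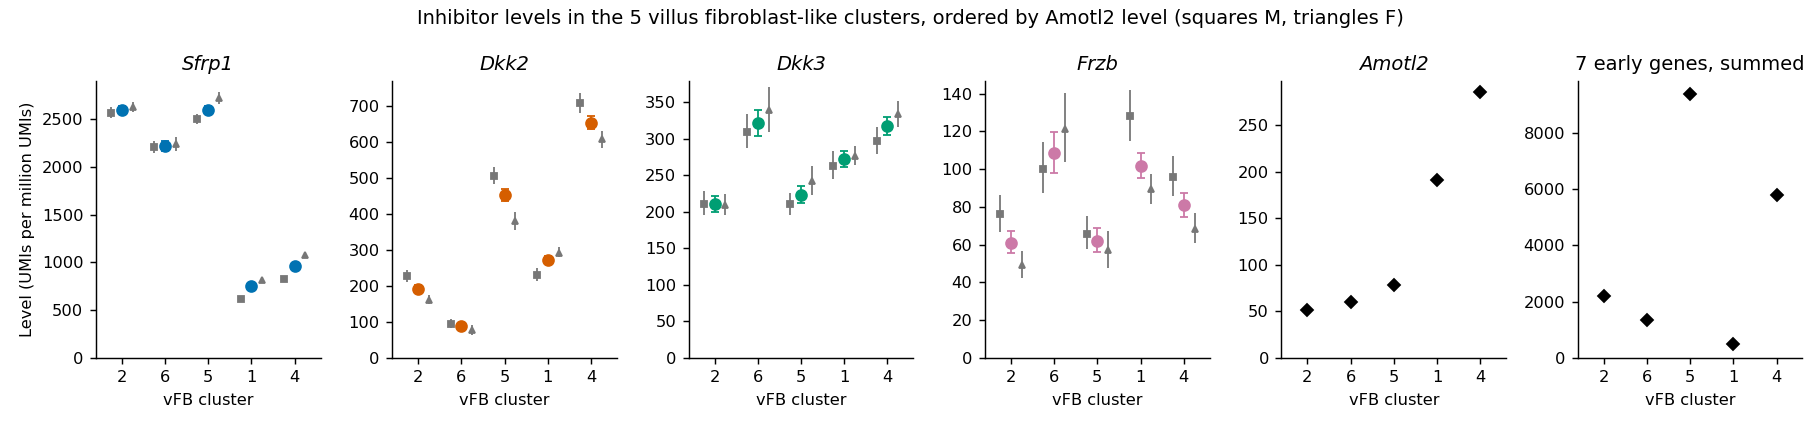
Each panel gives levels in CPM (y axis from 0) for the 5 vFB clusters, ordered from left to right by their Amotl2 level. Coloured circles are all cells of a cluster with 95% Poisson intervals, squares and triangles the columns marked M and F, and black diamonds the Amotl2 level and the summed level of 7 immediate early genes. Sfrp1 is 2219 or more in clusters 2, 6 and 5 and 966 or less in clusters 1 and 4, while Dkk2 runs from 87.8 in cluster 6 to 654 in cluster 4.

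Amotl2 (chromosome 9, 102716672 to 102733418) is a target gene of YAP and TAZ, and its UMIs were used to order vFB cells by target level. The clusters differed in it, with 286 CPM in cluster 4, 191 in cluster 1, 77.8 in cluster 5, 60.3 in cluster 6 and 51.6 in cluster 2. Summed immediate early genes (Fos, Fosb, Jun, Junb, Egr1, Atf3 and Ier2), which tissue dissociation is known to induce, were 9413 CPM in cluster 5, 5781 in cluster 4, 2186 in cluster 2, 1354 in cluster 6 and 504 in cluster 1. The study raised dissociation as a possible source but also saw Fosb in PDGFRβ+ cells in vivo. It used early genes to tell its vFB1 from its vFB2 fibroblasts, and the vFB class here does not separate them. Amotl2 and the other YAP/TAZ targets took no part in the clustering, while early genes did, and their part in the cluster levels was not tested.

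The second question was how the inhibitors stand in vFB cells of different Amotl2 level. After thinning to 5000 UMIs, 1753 vFB cells held no Amotl2 UMI, 711 held 1 and 504 held 2 or more. Sfrp1 was 2004 CPM (1984 to 2024), 1483 (1457 to 1510) and 981 (956 to 1006) in these groups. Dkk2 ran the other way, with 289 CPM (281 to 297), 406 (392 to 420) and 485 (468 to 503). The intervals of neighbouring groups did not overlap for either gene.

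The ratio of cells with 2 or more Amotl2 UMIs over cells with none was 0.490 (0.476 to 0.503) for Sfrp1 and 1.68 (1.61 to 1.76) for Dkk2. It was 1.19 (1.12 to 1.25) for Dkk3, with 252, 275 and 299 CPM, and 1.14 (1.03 to 1.26) for Frzb, with 77.8, 86.2 and 89.0 CPM. Only Sfrp1 of these 4 members was 2-fold or more apart, and it lay so near that mark that the count changed with several choices given at the end. Over all 10910 genes with at least 100 UMIs in these cells, 2.04% were at least 2-fold apart in either direction, 0.962% higher and 1.08% lower. The median ratio was 1.01, and the middle 90% of genes lay between 0.697 and 1.43. Sfrp1 had 103 genes below it and Dkk2 had 240 genes above it, while Dkk3 and Frzb lay inside that range.

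Sfrp1 gave most of the inhibitor UMIs, and the summed inhibitor level was lower with Amotl2. It was 2623 CPM (2600 to 2646) with none, 2250 (2218 to 2283) with 1 and 1854 (1821 to 1889) with 2 or more, a ratio of 0.707 (0.693 to 0.722). The share of Sfrp1 among inhibitor UMIs was 76.4%, 65.9% and 52.9%, and that of Dkk2 11%, 18% and 26.2%. The number of inhibitors seen per thinned cell was not lower (2.43, 2.58 and 2.62).

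After thinning, Sfrp1 was found in 97.0%, 94.4% and 92.5% of cells in the 3 groups, a share too near its ceiling to follow the level. Dkk2 was found in 48.4% (46.1 to 50.8), 56% (52.2 to 59.7) and 62.7% (58.3 to 66.9). Median UMIs per cell before thinning were 10019, 10949 and 11791.5, so depth moved with the groups. Between 8000 and 14000 UMIs per cell the ratios were 0.507 for Sfrp1 and 1.75 for Dkk2. Without cluster 6 they were 0.474 and 1.54. The summed vFB markers were also lower with Amotl2, at 6359, 5670 and 5500 CPM in the 3 groups, and their part in these ratios was not tested.

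Both ratios had the same direction in columns marked M (Sfrp1 0.428, Dkk2 1.69) and F (0.525 and 1.76). Among vFB cells with early genes below their median Sfrp1 had a ratio of 0.465 and Dkk2 of 1.75, and above the median 0.506 and 1.64. Immediate early genes were related to the inhibitors on their own. Cells above over cells below the median, Dkk2 was 1.84 (1.77 to 1.91), Sfrp1 1.32 (1.29 to 1.34), Dkk3 0.95 (0.911 to 0.991) and Frzb 0.766 (0.709 to 0.827). Of all genes tested, 3.2% were at least 2-fold apart in that comparison (2.59% higher and 0.605% lower), and none of these 4 was. For Dkk2 this ratio was 2.19 in columns marked M and 1.56 in those marked F.

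By both orderings, Dkk2 was lowest with no Amotl2 UMI and low early genes (203 CPM, 194 to 212) and highest with 2 or more and high early genes (616 CPM, 588 to 644). Sfrp1 was lowest with 2 or more Amotl2 UMIs and low early genes (806 CPM, 774 to 838) and highest with none and high early genes (2280 CPM, 2249 to 2311). Early genes thus ordered both inhibitors the same way, and Amotl2 ordered them in opposite ways. Frzb with no Amotl2 UMI was 92.5 CPM at low and 62.8 CPM at high early genes.

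**Figure D4:**
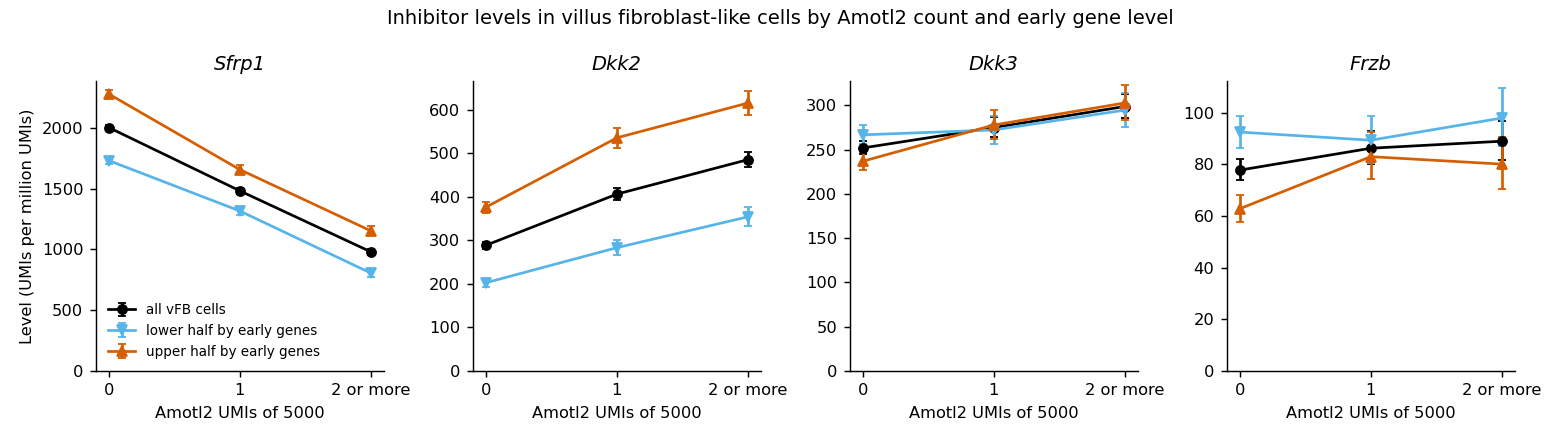
Each panel shows 1 inhibitor in vFB cells, with Amotl2 UMIs after thinning to 5000 UMIs on the x axis and the level in CPM on the y axis (from 0). Black is all vFB cells, blue and orange the cells below and above the median of immediate early genes, and bars are 95% Poisson intervals. Sfrp1 goes from 2004 to 981 and Dkk2 from 289 to 485 with Amotl2, and the orange line lies above the blue one at each step for both.

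Inside single vFB clusters the ratios were closer to 1. For Sfrp1 they were 0.746 (0.685 to 0.812) in cluster 2, 0.826 (0.774 to 0.881) in cluster 1, 0.869 (0.822 to 0.918) in cluster 4, 0.938 (0.871 to 1.01) in cluster 5 and 0.940 (0.857 to 1.03) in cluster 6. For Dkk2 they were 1.46 (1.25 to 1.69) in cluster 5, 1.36 (0.868 to 2.05) in cluster 6, 1.23 (1.11 to 1.36) in cluster 1, 1.05 (0.983 to 1.12) in cluster 4 and 0.847 (0.614 to 1.14) in cluster 2. Thus Sfrp1 was below 1 in each of the 5 clusters, with 3 intervals clear of 1, and Dkk2 was above 1 in 4 of them, with 2 intervals clear of 1. The differences over all vFB cells were larger than those inside any 1 cluster. Cells with 2 or more Amotl2 UMIs numbered 19 to 27 in clusters 2, 5 and 6.

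Outside vFB cells the Sfrp1 ratio had the same direction, at 0.673 (0.634 to 0.714) in FB4-like cells and 0.462 (0.314 to 0.661) in FB5-like cells, where it rests on few cells. The summed vFB markers were also lower with 2 or more Amotl2 UMIs than with none, at 700 against 950 CPM in FB4-like and 1705 against 2436 CPM in FB5-like cells, and FB5 markers were 2996 against 4519 CPM in FB5-like cells. Their part in the Sfrp1 and Dkk2 ratios of these classes was not tested. In FB4-like cells 3.12% of 7635 genes were at least 2-fold apart (1.96% higher and 1.15% lower), and neither Sfrp1 nor Dkk2 was. Dkk2 was 86.6 CPM without Amotl2 and 68.6 CPM with 2 or more in FB4-like cells, a ratio of 0.792 (0.640 to 0.974), a direction opposite to that in vFB cells and the same as that of the vFB markers there. In FB5-like cells the Dkk2 ratio was 1.60 (1.05 to 2.40), the same direction as in vFB cells, again from few cells. Without the 15 FB5-like cells of high doublet score Sfrp1 and Dkk2 were each at 22.2 CPM. This is under the 124 and 23.9 CPM that the free RNA bound would allow. The part of those cells and of free RNA in the FB5-like ratios was not tested.

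The other genes of the pathway give the setting of these inhibitors. Of 14 other secreted or surface Wnt inhibitors, 11 were listed and 5 had at least 100 UMIs. Igfbp4, an insulin-like growth factor binding protein that can also hold back Wnt receptors, was the best counted (857 CPM in vFB and 1034 in FB4-like cells), followed by Trabd2b, which cleaves Wnt proteins (47.9 and 60.4 CPM). Dkk1 had 3 UMIs. Between Amotl2 groups the 5 ratios had a median of 1.05, from 0.654 to 1.32.

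Of 19 Wnt ligands 10 were listed and 5 had at least 100 UMIs in vFB cells. Wnt4 was 526 CPM in vFB3-like, 352 in FB5-like and 38.3 in vFB cells, and Wnt5a 208, 181 and 22.3. The classes with most of these ligands thus had the least Sfrp1, and they carried Frzb (vFB3-like) or Wif1 (FB5-like). In vFB cells the ligands' median Amotl2 ratio was 0.612. Wnt5b (0.470, 0.233 to 0.869) was the 1 gene of 5 at least 2-fold apart, beside 2.04% of all 10910 genes. It was rare, at 1.948 CPM with 2 or more Amotl2 UMIs and 4.145 CPM with none. The 3 listed R-spondins, Rspo1, Rspo2 and Rspo3, were highest in FB4-like cells (28.8, 26.0 and 120 CPM), and none of them was 2-fold apart with Amotl2.

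Of the receptors, 13 of 19 were tested in vFB cells, with ratios from 0.746 to 1.94 and a median of 1.16. Fzd2 had the ratio of 1.94 (1.82 to 2.07) and Fzd1 1.34 (1.27 to 1.40), while the Dkk2 targets Lrp5 and Lrp6 were at 1.05 (0.862 to 1.27) and 1.03 (0.946 to 1.13). Of beta-catenin target genes and factors, 8 of 10 were tested, with ratios from 0.704 to 1.98 and a median of 1.05, and none was 2-fold apart. Tnfrsf19 was at 0.749 (0.608 to 0.918), Nkd1 was at 1.98 (1.73 to 2.26) and Axin2, a widely used readout of the pathway, at 1.38 (1.12 to 1.69). Of 4 glypicans tested, cell surface proteoglycans that bind Wnt proteins, ratios ran from 0.942 (Gpc1) to 2.24 (Gpc4, 1.95 to 2.59) with a median of 1.40. Gpc4 was the 1 gene of these 4 at least 2-fold apart, beside 2.04% of all 10910 genes. The secretion factors Wls and Porcn were at 1.15 (1.06 to 1.25) and 1.25 (0.942 to 1.64).

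The other YAP/TAZ target genes had ratios of 2.53 for Ajuba, 1.96 for Cyr61, 1.67 for Lats2, 1.60 for Ctgf and 0.905 for Axl, which went the other way. Ankrd1 had no UMI in vFB cells. Lats2 is itself floxed in these mice, so it is not a plain target readout here. In place of Amotl2, vFB cells were also ordered by the sum of Ajuba, Cyr61, Ctgf and Lats2, which left out Axl and Ankrd1. The highest over the lowest tertile then gave 0.620 for Sfrp1 and 1.93 for Dkk2. This ordering moved with early genes, as Cyr61, the best counted of the 4, was 4.55-fold higher in cells above than in cells below their median. Within cells of low early genes it gave 0.543 for Sfrp1 and 1.39 for Dkk2, and within those of high early genes 0.486 and 1.70, both splits chosen after seeing the data.

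By Pearson correlation of log2(CPM + 10) over 20 sets of cells (clusters split by column mark, all from 1 library), the 3 genes most like each member were as follows. Sfrp1 was closest to Hsd11b1 (r = 0.941), which encodes an enzyme that reactivates glucocorticoids, Adamts19 (0.935) and Plekha5 (0.931). Frzb was closest to Wdr66 (0.952), Msc (0.931) and Prr16 (0.907). Dkk2 had less close neighbours, Prkca (0.810), Hapln1 (0.791) and Adgrl2 (0.786). Dkk3 was closest to Pcdhb9 (0.935), Lamb1 (0.896) and Cplx2 (0.883), and Wif1 to Serpinb1b (0.952), Tspan13 (0.943) and Saraf (0.942). Sets of 1 class share most of their makeup, so these values describe the 20 sets only.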

How the data were processed

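Per the labels and the study's methods, sorted PDGFRb+ stromal cells were run on the 10x Chromium 3′ v3 kit, and the authors mapped the reads to mm10 with Cell Ranger 3.0.2 and processed them in Seurat (3.0.1 in the submitters' processing notes, another version in the methods). The methods removed cells under 1000 or over 6000 genes or over 7% mitochondrial UMIs, potential doublets by that gene limit, and immune and endothelial clusters. All 4108 deposited cells met the limits. The deposited values are the natural log of 1 plus UMIs per 10000, and the UMI counts were recovered from them (100.00% whole multiples, tolerance 0.001). The design had assumed counts, and the recovered counts were used.

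Cells were clustered in Seurat 5.3.0 (R 4.3.3) on 1969 of 2000 variable genes, 30 principal components, resolution 0.5. A cluster took a class with at least 3 of that list's markers among its 10 leading genes and none of another list. This rule, and the naming of the remaining clusters as vFB, were set after cluster levels were seen. Scrublet (scanpy 1.11.5) called 9 doublets (0.219%). Its calls were not used to remove cells, since the gene limit had already removed potential doublets and under 0.5% of cells were called. All cells were kept, and an alternative drops the top 4% of cells by score (164 cells), most of which were not called doublets. Levels, intervals and thinning used numpy 2.4.6 and scipy 1.17.1. The ratios and their intervals were checked on simulated Poisson counts, which cannot address counts clumped in few cells. Thinning was not simulated. The named genes are the 9 members, the fixed pathway lists and the 3 genes most like each member. Members and lists were chosen with earlier results of these data known.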

Additional observations from a re-analysis of the deposited data

How the results depend on the processing

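The count of 4 members at least 2-fold higher in 1 class was 3 or 4 under all 12 alternatives, and Sfrp1 in vFB cells was under 2-fold at resolution 1.0 (1.95), in columns marked F (1.89), with 8000 to 14000 UMIs (1.93) and with at most 5% mitochondrial UMIs (1.78). The ratio of the summed level between the highest and lowest class, 4.73, was 4.18 with cells placed by their own markers, 8.68 with at most 5% mitochondrial UMIs, 6.46 with 8000 to 14000 UMIs, 6.39 without the highest doublet scores (the lowest class then being FB5-like and not MC-like cells) and 6.69 with the free RNA bound subtracted. The count of 1 member at least 2-fold apart between Amotl2 groups was 0 with Amotl2 counted in 2000 UMIs, with other YAP/TAZ targets (over all vFB cells and within those of low early genes), with high early genes, in columns marked F, with at most 5% mitochondrial UMIs and with 8000 to 14000 UMIs, and 2 with a fold of 1.5. The Sfrp1 ratio itself ranged from 0.428 to 0.623 and that of Dkk2 from 1.39 to 1.93 over the 18 settings, while Frzb ranged from 0.986 (resolution 1.0) to 1.58 (other targets within high early genes). Chosen after seeing the data, the splits by other targets within early gene groups, the inclusion of vFB3-like cells and the omission of cluster 6 gave 1 member apart from the value of 0 above, and omitting cluster 6 gave a summed ratio of 4.64. The mean number of members per vFB cell was 1.77 at 2000 UMIs and 3.01 without thinning. At resolution 1.0 an FB4-type cluster of 186 cells with 2 leading FB4 markers and a cluster of 188 cells with 2 leading vFB3 markers and no vFB marker fell into vFB. Wif1 in FB5-like cells over all other cells ranged from 354 to 707 over the 10 settings that gave a value. In columns marked F and with at most 5% mitochondrial UMIs no other cell held Wif1. The causes were not tested. No paired analysis was possible because only 1 library was analysed. The single library and the 45 to 76 cells of 3 classes limit precision.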
